A study of Phalacrocorax auritus with 15 samples.

Results

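Among 16181 RNA features counted in liver of double-crested cormorant embryos, 35 differed widely between livers exposed to the same agent. These 35 kept a mean level within 3-fold of the mean of 4 solvent livers. They were chosen by level and spread. The level in CPM, the count scaled to a library total of 1000000, had to average at least 10 over the 10 libraries exposed to ethinylestradiol (EE2) and under 1000 over solvent replicates 1, 3, 4 and 5. These averages had to be less than 3-fold apart, and the SD of log2(CPM + 1) over the 10 EE2 libraries had to be at least 1.2. Of 8652 features within the limits on level and ratio, 35 met the SD limit (0.405%). The EE2 average divided by the solvent average was 0.498 to 2.92 among members, with a median of 2.09, so most members averaged higher in EE2 livers. A feature is a row of the deposited table with an ID of its own. The table does not pair IDs with gene names, so 0 members have a name, and 5 members are given by ID.

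Liver was taken from the left lobe in 5 samples per group: 33.3 µg EE2 per g egg, 3.33 µg EE2 per g egg, and dimethyl sulfoxide solvent alone. These doses are nominal; per the labels the eggs actually received 31.9 and 2.3 µg/g. EE2 or solvent was injected into the air cell in 50 µl before incubation, so all 3 groups share the injection and the solvent. In the column names of the counts, the prefix of all EE2 libraries differs from that of all solvent libraries. What the prefixes stand for is not known here. Any difference they mark cannot be told apart from EE2 against solvent. The stage is day 14 in the sample labels and day 16 in the text on the series' design, and the labels do not say that each sample came from a separate embryo, nor give its sex.

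EE2 is a synthetic oestrogen that binds the oestrogen receptor in the cell nucleus. In egg-laying vertebrates the liver is a main target of oestrogen. It switches on the genes for the yolk proteins that an adult female's liver secretes for her eggs. Embryonic liver is a mixed tissue of hepatocytes, bile duct, vessel-lining and stromal cells and blood cells at several stages. In RNA from whole tissue, fewer cells of a type and less RNA per cell cannot be told apart. With no gene names, hepatocyte and other cell type markers could not be looked up.

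Library totals ranged from 11602455 to 19929889 counts. The lowest count of any member in any library was 7, so all members were detected in all 15 libraries. The 20 most abundant features held 12.4% of counts in 33.3 µg/g replicate 3, 9.41% in 3.33 µg/g replicate 5 and 10.04% in solvent replicate 2, against 14.3 to 31.2% in each other library. Features at 1 CPM or more numbered 12713, 12834 and 13107 in those 3 libraries and 11546 to 12643 in each other one. Solvent replicate 2 stood apart from the other solvent libraries and was not used to choose the members. It is given separately below.

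The working description of these features as the most variable holds only within the limits of the rule. Of 80 features that averaged at least 10 CPM with an SD of at least 1.2, the other 45 averaged at least 3-fold above solvent in EE2 livers, and 10 of them had a larger SD than any member. Members had SDs of 1.21 to 1.95 with a median of 1.38, and the median over the 8652 features was 0.225. The members nearest the limit had SDs of 1.21 each, and the nearest features outside it 1.19 and 1.18. The highest EE2 library exceeded the lowest by 9.10-fold to 105-fold, with a median of 25.2-fold among members and 1.68-fold among the 8652 features. Most members were of modest abundance. Their mean over EE2 libraries was 10.5 to 568 CPM with a median of 21.9 CPM, and 33 of 35 were under 100 CPM.

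Most members varied together. Average-linkage grouping on the correlation of log2(CPM + 1) over the 10 EE2 libraries, with the tree divided at a height of 0.5, put 32 members in a single group and left 3 on their own. Within the 32, all 496 pairs correlated positively over these libraries (n = 10), with a median r of 0.889 and a range of 0.205 to 0.993. Without 33.3 µg/g replicate 3 and 3.33 µg/g replicate 5, which were chosen because they were highest, 466 pairs were positive and the median r was 0.815. Members of a library share its depth and scaling. With trimmed-mean-of-M-values (TMM) scaling the medians were 0.869 with these libraries and 0.787 without them. The grouping used the values that chose the members, so these correlations are a description.

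**Figure D1:**
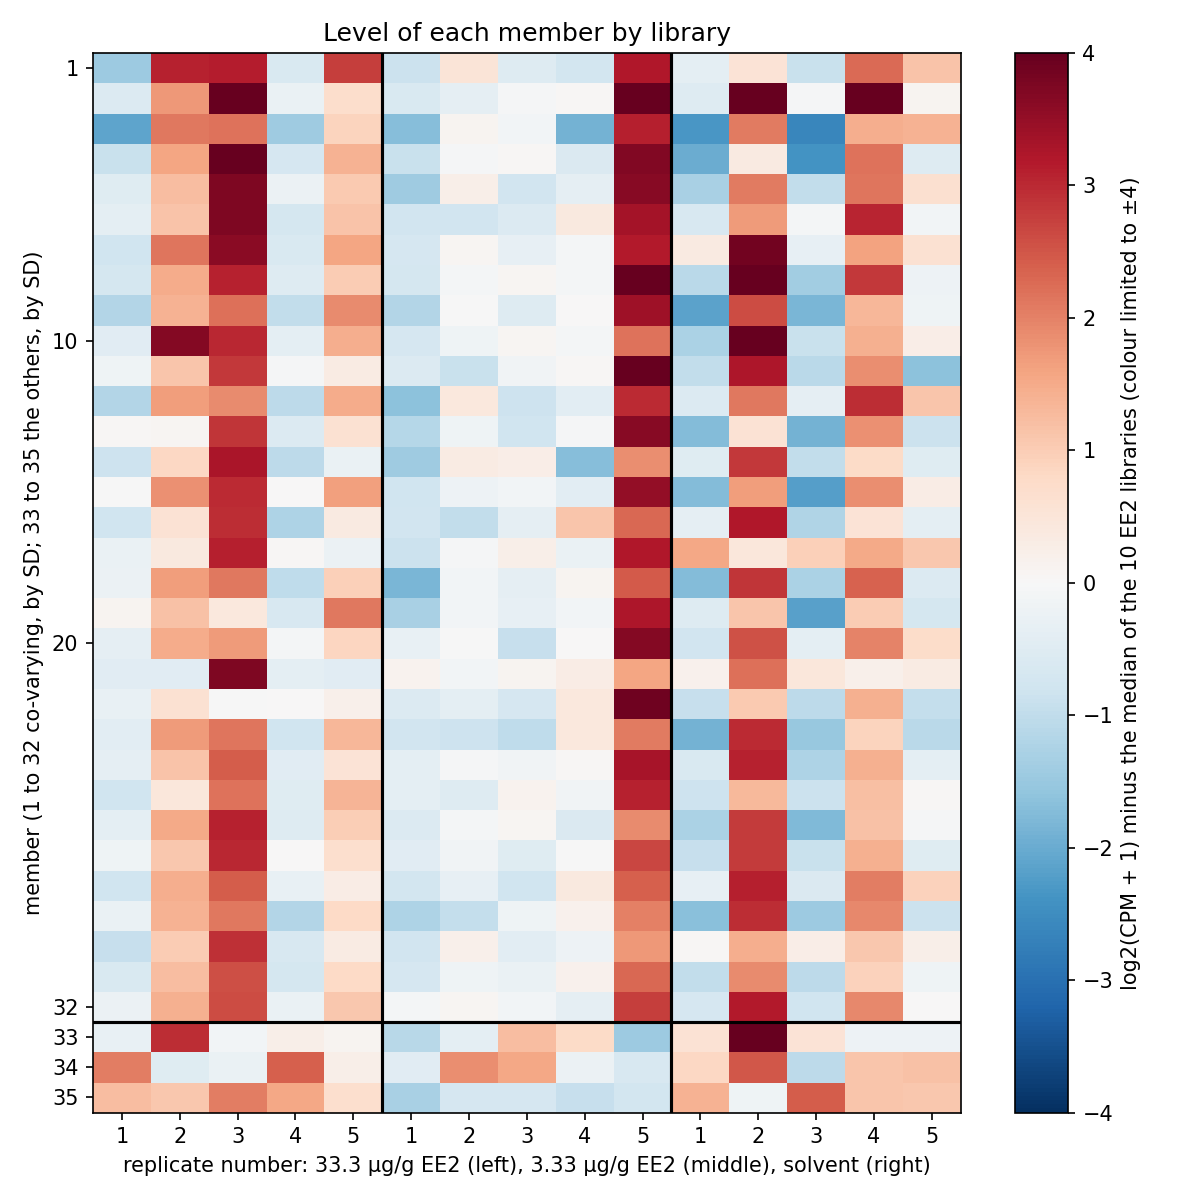
Each row is a member and each column a library; colour gives log2(CPM + 1) minus that member's median over the 10 EE2 libraries, and black lines divide the groups and set off the 3 members outside the co-varying group. Most of rows 1 to 32 are red in 33.3 µg/g replicate 3 and 3.33 µg/g replicate 5, paler red in 33.3 µg/g replicates 2 and 5, and red again in solvent replicates 2 and 4.

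The 32 co-varying members were carried above all by 33.3 µg/g replicate 3 and 3.33 µg/g replicate 5. In 33.3 µg/g replicates 1 to 5, the median of the 32 lay at -0.46, 1.40, 2.89, -0.53 and 0.92, in log2 units relative to each member's own median over the EE2 libraries. In 3.33 µg/g replicates 1 to 5, it lay at -0.75, -0.10, -0.31, -0.06 and 3.14. Each dose therefore held a library near 3, and 33.3 µg/g also held 2 intermediate libraries, replicates 2 and 5. The highest value was in 33.3 µg/g replicate 3 for 15 of the 32, in 33.3 µg/g replicate 2 for 1 and in 3.33 µg/g replicate 5 for 16.

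33.3 µg/g replicate 3 and 3.33 µg/g replicate 5 were also high for many other features on the CPM scale. They were the 2 highest EE2 libraries for 29 of the 32, against 29.9% of the 8652 features, and for 28 of the 32 against 13.2% with TMM scaling. The 4 highest were 33.3 µg/g replicates 2, 3 and 5 and 3.33 µg/g replicate 5 for 26 of the 32, against 11.6% of the 8652, and for 26 against 7.51% with TMM scaling. These orders use the values that chose the members, so nothing is read from the difference.

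By size, 29 of the 35 members were at least 4-fold above their EE2 median in 33.3 µg/g replicate 3 (0.74% of the 8652 features were), and 28 in 3.33 µg/g replicate 5 (0.89%). In 33.3 µg/g replicate 2 there were 5 (0.0578%), and 3 (0.0347%) with TMM scaling. These counts use the values that chose the members, so nothing is read from their distance to the shares over all features. Counts from members made up 0.540% of 33.3 µg/g replicate 3 and 0.496% of 3.33 µg/g replicate 5. The shares in 33.3 µg/g replicates 2 and 5 were 0.158% and 0.118%, and every other EE2 library held 0.0278 to 0.0553%. These 2 libraries, with the highest member shares, also had the lowest shares among EE2 libraries of counts in their 20 most abundant features. The part of that difference in the result was not tested.

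**Figure D2:**
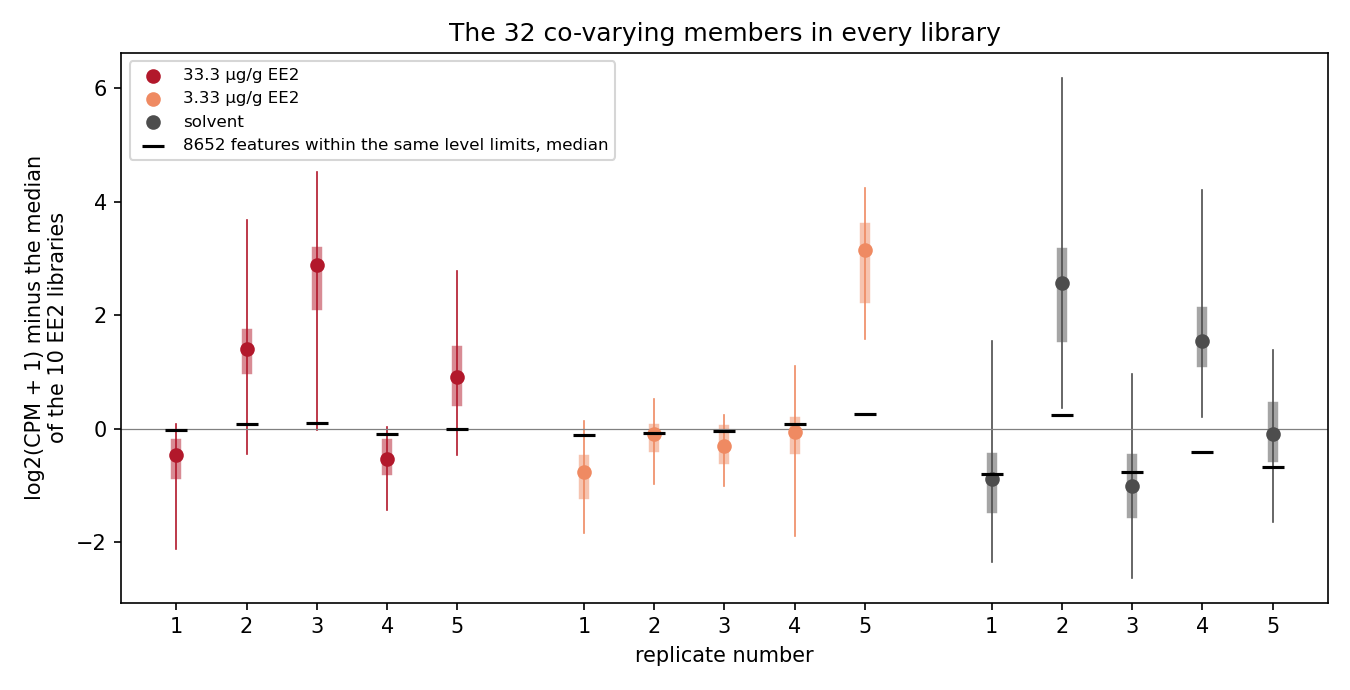
Points give the median over the 32 co-varying members in each library, thick bars the quartiles and thin lines the range, in log2(CPM + 1) relative to each member's median over the 10 EE2 libraries; black dashes give the median over all 8652 features within the same limits. The points in 33.3 µg/g replicates 2 and 3 (1.40 and 2.89), 3.33 µg/g replicate 5 (3.14) and solvent replicates 2 and 4 (2.57 and 1.55) stand above the dashes by more than 1 log2 unit.

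Among the 32, s2f_0004084005 had the largest SD. It had 1.74, 62.9, 65.5, 3.91 and 50.7 CPM in 33.3 µg/g replicates 1 to 5. At 3.33 µg/g it had 3.15, 9.82, 4.24, 3.52 and 67.9 CPM, and in solvent replicates 1 to 5 it had 4.72, 9.91, 3.08, 35.1 and 15.6 CPM. In this feature 33.3 µg/g replicates 2 and 5 were nearly as high as replicate 3, solvent replicate 2 was the middle value of its group, and the ranges of all 3 groups overlapped. On the log2 scale 33.3 minus 3.33 µg/g gave 1.17 ± 0.999 (standard error; edgeR adjusted p = 0.999), and 2.67 without 3.33 µg/g replicate 5 (edgeR adjusted p = 0.761).

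The most abundant member was s2f_0001418001. Its levels were 75.7, 425, 2439, 88.4 and 366 CPM in 33.3 µg/g replicates 1 to 5. In 3.33 µg/g replicates 1 to 5 they were 75.3, 137, 143, 94.4 and 1834 CPM. Solvent replicates 1 to 5 held 34.3, 182, 26.02, 637 and 98.6 CPM. A single library at each dose exceeded 1000 CPM, solvent replicate 4 was far above the other solvent livers, and the doses overlapped. The higher dose minus the lower was 0.68 ± 1.10 in log2 units (standard error; edgeR adjusted p = 0.999), -0.76 without 33.3 µg/g replicate 3 and 2.42 without 3.33 µg/g replicate 5.

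Levels were mostly graded and in no case on/off. A member was called on/off where the largest gap between neighbouring libraries, in sorted log2(CPM + 1) over the 10 EE2 libraries, was at least 2 (4-fold) and all libraries below it were under 1 CPM. It was called stepped where the gap was as large but a library below it had at least 1 CPM, and graded otherwise. By this division 0 members were on/off (0% of the 8652 features), 9 were stepped (0.162%) and 26 were graded (8638 of the 8652). The classes use the values that chose the members, so nothing is read from the differences in share. The largest gap was 0.69 to 3.29 with a median of 1.39. The 9 stepped members were all in the co-varying group, and in 2 of them a single library lay above the gap.

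The member nearest to on/off had the second largest SD. It had 0.581, 6.64, 51.6, 0.903 and 2.70 CPM in 33.3 µg/g replicates 1 to 5, and 0.489, 0.793, 1.23, 1.34 and 42.4 CPM in 3.33 µg/g replicates 1 to 5. In solvent replicates 1 to 5 it had 0.602, 38.1, 1.22, 41.1 and 1.46 CPM. It was thus at 38.1 CPM or more in 4 of the 15 libraries, at 6.64 CPM in 33.3 µg/g replicate 2 and at 2.70 CPM or less in the other 10. Of the 35 members, 2 fell under 1 CPM in an EE2 library, and 1 of them in more than 1 such library.

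The largest gap belonged to a member that was high among EE2 livers in 3.33 µg/g replicate 5 alone. It was at 77.7 CPM there, against 2.29 to 6.15 CPM in the other libraries at that dose and 3.29 to 7.02 CPM in those at 33.3 µg/g. In the other stepped member with a single library above the gap, 33.3 µg/g replicate 3 had 84.2 CPM, against 3.66 to 3.91 CPM in the others at that dose and 5.001 to 18.4 CPM at 3.33 µg/g.

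The members also varied among solvent livers. The rule used the mean of solvent replicates 1, 3, 4 and 5 but not their spread. The SD of log2(CPM + 1) over these 4 libraries was at least 1.2 in 22 of the 35 members, against 33 of the 8652 features (0.381%), and all 22 were in the co-varying group. Members were therefore 66.7% of the solvent-varying features, and solvent-varying features 62.9% of the members. With TMM scaling the counts were 16 members and 23 features. The median solvent SD was 1.25 among members, with a range of 0.124 to 2.26, and 0.207 among the 8652 features. In 12 members the spread over these 4 solvent livers exceeded that over the 10 EE2 livers. That count was not taken over the 8652 features, so nothing is read from it.

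The limit on the ratio of EE2 to solvent means bears on this count, since a feature with a low usual level and a few high EE2 livers meets it more readily where a solvent liver is high too. The 45 features that met the EE2 level and SD limits but averaged at least 3-fold above solvent were therefore set beside the members. Of these, 10 (22.2%) had a solvent SD of at least 1.2, with a median of 0.870. With the mean profile of the 32 co-varying members, 23 of the 45 correlated at r of at least 0.9 over EE2 libraries (n = 10). Of the 8652 features, 10.2% did. Of those 23, 22 were highest of the 4 solvent libraries in replicate 4, against 35 of all 45 and 68.2% of the 8652 features. The share of solvent-varying members is therefore a description of features chosen in part through their solvent mean.

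**Figure D3:**
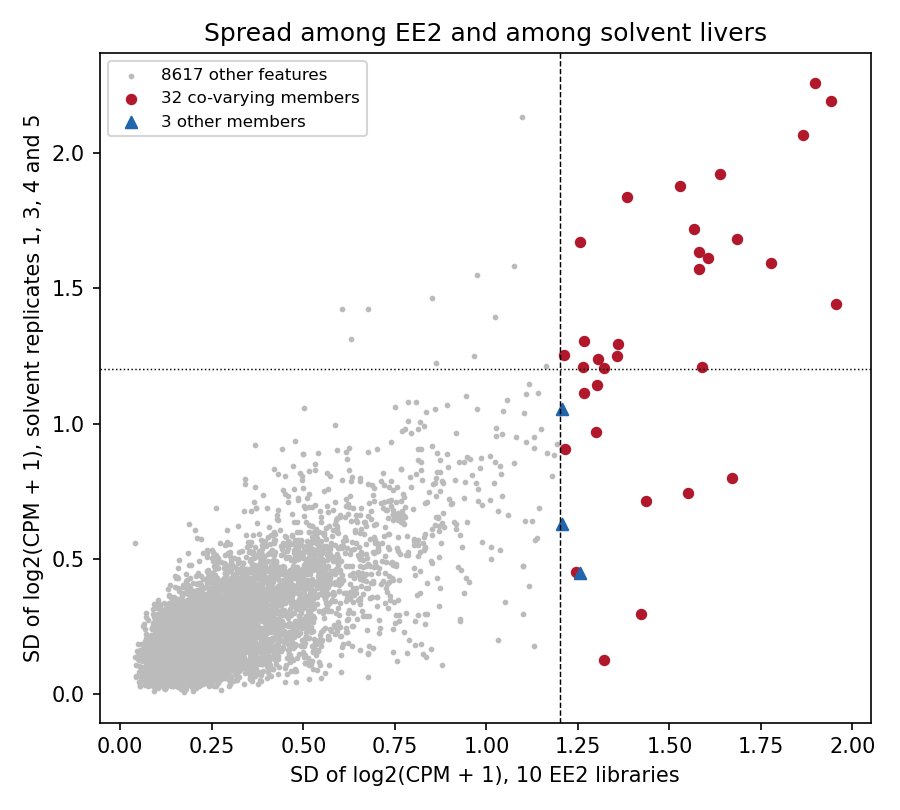
Each point is a feature within the limits on level and ratio; the horizontal axis is the SD of log2(CPM + 1) over the 10 EE2 libraries and the vertical axis the SD over solvent replicates 1, 3, 4 and 5. Dashed and dotted lines mark 1.2 on each axis, and 22 of the 35 members lie above the dotted line, against 11 of the 8617 other features.

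Solvent replicate 4 set most of this spread. The median of the 32 co-varying members lay at -0.88, -1.01, 1.55 and -0.09 in solvent replicates 1, 3, 4 and 5, relative to each member's median over the EE2 libraries. The median over all 8652 features was -0.80, -0.76, -0.40 and -0.67 in the same libraries. Of the 32, 30 were highest of the 4 in replicate 4, against 68.2% of the 8652 features. With TMM scaling, 29 were highest there against 23% of the 8652. Without replicate 4, the SD over the remaining 3 libraries reached 1.2 in 2 members, against 5 of the 8652 features. The share of counts in the 20 most abundant features was 25.6% in solvent replicate 4 and 29.1 to 31.2% in replicates 1, 3 and 5, and its part in the result was not tested.

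Solvent replicate 5 came next. It was above replicates 1 and 3 in 24 of the 32 co-varying members, against 51.7% of the 8652 features, and in 23 against 27% with TMM scaling. In replicates 3, 1, 5 and 4, the medians of the 32 thus rose from -1.01 and -0.88 through -0.09 to 1.55. The gap classes were not taken over solvent livers, so whether single members were graded or stepped there is not given.

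Solvent replicate 2, which had no part in choosing the members, was also high. Its median over the 32 was 2.57, against 0.25 over all 8652 features. It exceeded replicates 1, 3 and 5 in 30 of the 32, against 83.1% of the 8652 features, and in 27 against 34.9% with TMM scaling. It was at least 4-fold above the EE2 median in 23 of the 35 members (2.07% of the 8652 features were), and solvent replicate 4 in 9 (0.104%). With TMM scaling these counts were 19 (1.2%) and 15 (0.208%). Replicate 2 exceeded replicate 4 in 22 of the 32, so neither was uniformly the higher. On the CPM scale replicate 2 was the highest of all 5 solvent libraries in 22 of the 32, against 81.2% of the 8652 features. On this scale its place above replicate 4 was thus not particular to the members. The same count was not taken with TMM scaling. Over all 5 solvent libraries the SD was at least 1.2 in 30 members, against 4.06% of the 8652 features.

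The spread over the 10 EE2 libraries, which chose the members, was also taken within each dose. Over the 5 libraries at 33.3 µg/g the SD was at least 1.2 in 30 of 35 members (0.439% of the 8652 features), and over the 5 at 3.33 µg/g in 27 (0.682%), with 23 members in both. Differences between the dose means made up a median of 3.26% of a member's sum of squares over the 10 EE2 libraries, against 5.06% among the 8652 features. In the co-varying group the highest such share was 15.8%. These are the same 10 values on which the rule set its limit, so the counts and shares are a description and nothing is read from them.

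The doses, 33.3 against 3.33 µg/g, were then compared over all features. The edgeR quasi-likelihood test called 0 of the 35 members and 0 of 13014 features tested (0%), with all 35 members among them. The smallest adjusted p over all features was 0.999, and members were chosen for a wide spread over the same libraries, so the 0 calls do not show that the doses act alike on them. At an unadjusted p under 0.05 there were 1 member and 479 features (3.68%). Without 3.33 µg/g replicate 5 there were 10 members (6.11% of features), and without both that library and 33.3 µg/g replicate 3 there were 4 (3.58%). These libraries carried much of the spread that chose the members, and most members vary together. Those counts of members are therefore not separate results, and nothing is read from them. DESeq2 called 1 member and 4 features (0.0307%), and limma-voom called 0. In DESeq2, 4 of the 35 members received no adjusted p, so they could not be called. The median log2 difference was 0.47 over the members and 0.00 over all features tested. The members' median was negative without 33.3 µg/g replicate 3, at -0.30, and positive in every other fit. Without 3.33 µg/g replicate 5 it was 1.56.

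The member with the lowest p was s2f_0000923008, which is not in the co-varying group. It had 18.1, 16.2, 32.1, 22.4 and 11.9 CPM in 33.3 µg/g replicates 1 to 5, and 2.31, 4.03, 4.07, 3.27 and 3.89 CPM in 3.33 µg/g replicates 1 to 5. In solvent replicates 1 to 5 it had 20.3, 6.12, 42.2, 16.3 and 16.2 CPM. Every library at 33.3 µg/g was above every library at 3.33 µg/g, and every library at 3.33 µg/g was below every solvent library. It was the only member whose doses did not overlap (1.02% of the 8652 features), and 90.0% of its sum of squares over the EE2 libraries lay between the dose means. The 33.3 µg/g libraries averaged 20.1 ± 7.70 CPM (SD, n = 5) and the 3.33 µg/g libraries 3.51 ± 0.747 CPM (SD, n = 5).

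Whether its difference between doses passed depended on the libraries and the tool. The log2 difference was 2.50 with a standard error of 0.513, which did not pass over all features (edgeR unadjusted p = 0.000231, adjusted p = 0.999). It passed with DESeq2 (adjusted p = 0.00585) and in an edgeR fit of the EE2 libraries alone (adjusted p = 0.0262). Without solvent replicate 2 the standard error fell to 0.350, but the difference did not pass (edgeR adjusted p = 0.0781). It did not pass with limma-voom either (adjusted p = 0.999). The estimate itself was 2.28 to 2.63 over all alternatives tried. This feature was singled out after its values had been seen, and it had the smallest SD of the 35 members. Its SD was 0.51 within 33.3 µg/g and 0.26 within 3.33 µg/g. It therefore met the SD limit of 1.2 only through the difference between doses. The dose tests use the same values, so a pass is no independent evidence.

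The other members outside the co-varying group each differed from that group in their order of libraries. The feature s2f_0008326014 had 54.6, 8.77, 10.4, 70.1 and 14.9 CPM in 33.3 µg/g replicates 1 to 5. In 3.33 µg/g replicates 1 to 5 it had 8.88, 47.9, 38.9, 10.6 and 7.71 CPM. Solvent replicates 1 to 5 held 23.1, 74.2, 5.52, 28.0 and 29.3 CPM. It was high in 33.3 µg/g replicates 1 and 4 and 3.33 µg/g replicates 2 and 3, and its largest gap of 1.33 log2 units lay just below these 4. Its highest value among solvent livers was in replicate 2. The higher dose minus the lower was 0.47 ± 0.729 in log2 units (standard error; edgeR adjusted p = 0.999), and -0.10 without 33.3 µg/g replicate 4.

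The feature s2f_0000650003 was highest in replicate 2 among the 33.3 µg/g livers and in replicate 2 among the solvent livers. Its levels were 5.55, 61.6, 6.54, 8.50 and 7.73 CPM in 33.3 µg/g replicates 1 to 5. In 3.33 µg/g replicates 1 to 5 they were 2.73, 5.18, 18.2, 12.7 and 1.94 CPM. In solvent replicates 1 to 5 they were 11.04, 1113, 10.9, 5.99 and 6.0003 CPM. Solvent replicate 2 and 33.3 µg/g replicate 2 were each far above the rest of their group, whereas 3.33 µg/g replicate 2 was not. The other 4 solvent livers differed little, with an SD of 0.45 in log2(CPM + 1). The higher dose minus the lower was 1.04 ± 1.28 in log2 units (standard error; edgeR adjusted p = 0.999), and -0.22 without 33.3 µg/g replicate 2.

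**Figure D4:**
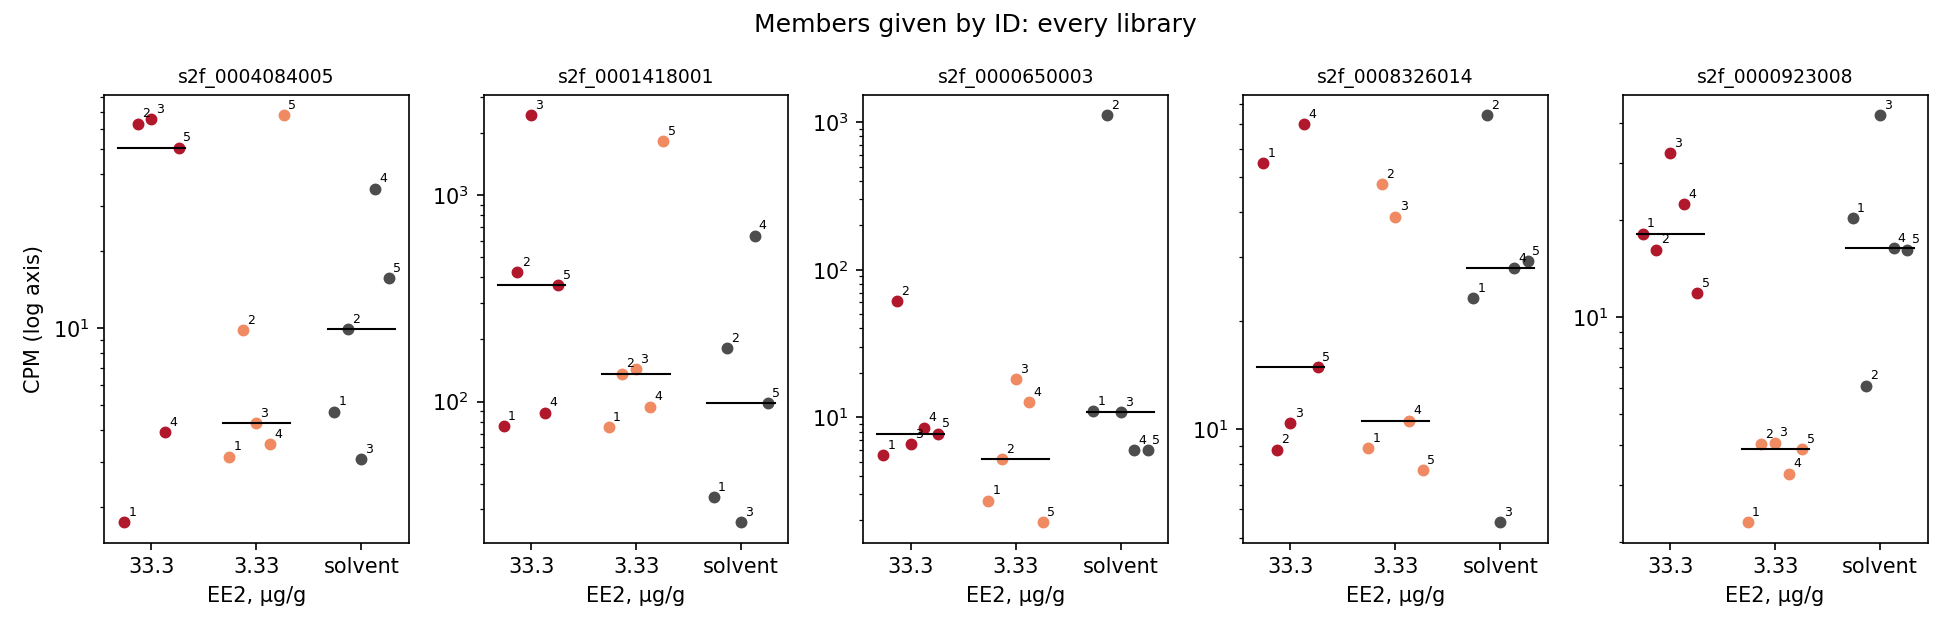
CPM on a log axis for the 5 members given by ID in every library, with the replicate number beside each point and a line at the group median; the first 2 panels are co-varying members and the other 3 are the members outside that group. In the last panel the 33.3 µg/g libraries (11.9 to 32.1 CPM) lie above all 3.33 µg/g libraries (2.31 to 4.07 CPM), and in the other panels the doses overlap.

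Many features outside the SD limit had the same pattern over EE2 livers with a smaller range. With the mean profile of the 32 over the 10 EE2 libraries, 855 of the 8617 other features (9.92%) correlated at r of at least 0.9, a limit chosen after the data had been seen. Their SDs had a median of 0.403 and reached 1.19. In 109 features (1.26%) r was at most -0.9, with a median SD of 0.333. With TMM scaling the counts were 362 and 392, so the balance of the directions depended on the scaling. Of the 855, 802 (93.8%) were highest of the 4 solvent libraries in replicate 4, where 68.2% of the 8652 features were. These correlations share the libraries' scaling and are a description.

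IDs that begin with the same 7 digits were shared by 2 pairs of members, all 4 in the co-varying group. Over the EE2 libraries the members of a pair correlated at r of 0.846 and 0.924 (n = 10 each). What a shared start means, and whether such features share reads, is not given in the sources used here. Of the 35 members, 30 share their start with some other feature of the table, as do 62.9% of all features.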

How the data were processed

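The authors deposited a table of whole-number counts per feature for 15 libraries. The counts were taken as unnormalised because library totals differ. The aligner, counting program, reference, strand setting and handling of shared reads are not given in any source used here. RNA was extracted from homogenised liver with a silica column kit and DNase I, per the labels' protocols. Columns were matched to samples by name; the table's medium and high classes, per the file headers, were read as 3.33 and 33.3 µg/g, a match that no header states in words. No column was left without a sample.

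CPM used the column total. The members and lists were chosen with earlier results of these data known. The named features are the co-varying members of largest SD and highest mean; the naming rule could not rank the 3 groups of 1 member, so all 3 were named after their values were seen.

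Doses were compared with the edgeR 4.0.16 quasi-likelihood test (R 4.3.3) in a model of 3 groups and 15 libraries, with TMM scaling, the default filter by expression (minimum count 10, minimum total 15) and Benjamini-Hochberg adjustment over 13014 features. Tests were two-sided, with calls at an adjusted p under 0.05. The standard error is the absolute log2 difference divided by the square root of F. In simulated counts for 33.3 against 3.33 µg/g, with 200 of 13014 features changed, 52% of 2-fold and 78% of 4-fold changes were recovered and 5.11% of calls were false. The simulated libraries varied independently, with no library set apart across many features, so these rates may not hold for the data. Nothing says that the samples of a group are separate animals, so p-values reflect only their spread, which may be technical. DESeq2 1.42.0 and limma 3.58.1 were alternatives, as were other scalings, filters, pseudocounts and limits, the replicate number as a block and leaving out libraries.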

Additional observations from a re-analysis of the deposited data

Results flagged for a closer look

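Of 18 groups of 5 values examined, for the 5 members given by ID and the median of the 32 co-varying members, 4 had an extreme library whose gap to its neighbour, as a share of the group's log2 range, was above 0.71, the 95% limit of Dixon's test. Chance flags about 1 group in 20, and these features were chosen for their spread over the EE2 libraries. The flags at either EE2 dose are therefore no independent evidence.

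At 3.33 µg/g, replicate 5 stood apart both for the median of the 32 co-varying members, at 3.14, and for s2f_0001418001, at 1834 CPM. These values are linked, since that feature is among the 32. The feature s2f_0000650003 stood apart in 33.3 µg/g replicate 2, at 61.6 CPM, and in solvent replicate 2, at 1113 CPM. The choice of members did not use solvent replicate 2, but this feature was named after its values had been seen. That library was also at least 4-fold above the EE2 median in 2.07% of the 8652 features.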

How the results depend on the processing

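The number of members was 35 and depended on the limits: 16 with a pseudocount of 5 CPM, 82 with an SD of at least 1, 15 with an SD of at least 1.5 and 57 with solvent replicate 2 included in the solvent mean. Leaving out each EE2 library in turn gave 26 to 43. With the SD taken within doses, 40 features met the rule, 34 of them among the 35. Without both 33.3 µg/g replicate 3 and 3.33 µg/g replicate 5, an alternative chosen after seeing the data, 6 features met the rule, of which 5 were among the 35. TMM scaling gave 43 features, 22 of them among the 35; of the 13 lost, 8 missed only the SD limit. The count of members that varied among solvent livers was 22, and 11 with a pseudocount of 5 CPM; leaving out each of the 4 solvent libraries gave 2 to 24, the lowest without replicate 4. No on/off member appeared under any of the 16 alternatives tried, leave-one-out fits (0 to 0) included. In most of these the count could hardly change, since only 2 members fell under 1 CPM in any EE2 library. Stepped members numbered 9, and 1 with a gap of at least 3; leave-one-out values were 9 to 12.

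Between doses, 0 members and 0 features were called, and 0 under each of the 15 fits without a library. DESeq2 called 1 member and 4 features and a fit of the 10 EE2 libraries alone 1 member, the only feature it called. Over the leave-one-out fits the log2 difference was 0.89 to 2.67 for s2f_0004084005 (highest without 3.33 µg/g replicate 5), -0.76 to 2.42 for s2f_0001418001 (reversed without 33.3 µg/g replicate 3), -0.22 to 1.62 for s2f_0000650003 (without 33.3 µg/g replicate 2) and -0.10 to 0.96 for s2f_0008326014 (without 33.3 µg/g replicate 4). The cause of the changes with tool and fit was not tested.

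No pairing by replicate number was seen between the EE2 groups. Correlations of same-numbered EE2 libraries' deviations from their group means were -0.47 to 0.44, and 1 of 10 libraries correlated best with its own number. Solvent libraries were not compared in this way, and so few correlations cannot exclude a pairing. With the replicate block 0 members and 0 features were called, as without it, and the log2 difference of s2f_0000923008 was 2.40 (edgeR adjusted p = 0.99996).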
